A study of Mus musculus with 10 samples.

Results

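The genes described here are 40 interferon-stimulated genes of the mouse, chosen by name from 7 functional roles: transcription factors, sensors and effectors that act on nucleic acids, IFIT, MX and other antiviral effectors, the ISG15 system, membrane and mitochondrial proteins, interferon-gamma GTPases, and immunoproteasome and peptide transport. They were 40 of 33714 genes in the bulk kidney table, and all 40 passed the low-count filter that kept 17616 genes for testing. The single-cell data listed 39 of them among 15340 genes of the injured kidney and 36 among 13217 genes of the uninjured kidney. Mx2 was missing from both lists, and Oas3, Mx1 and Ifitm1 from the uninjured one.

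Interferons are secreted alarm proteins. Type I interferons and interferon-gamma bind separate receptors on the cell surface, Janus kinases then phosphorylate STAT proteins, and STAT and IRF complexes switch on genes that block viral replication, load peptides onto class I molecules and brake the response itself. These genes are also read out in sterile injury of the kidney, where dying cells release nucleic acids and leukocytes enter the tissue.

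The study is about Indian hedgehog (Ihh), a secreted ligand, in kidney injury and fibrosis. All mice were 8 weeks old. Injured kidneys had 15 minutes of unilateral renal artery ligation and were taken 2 weeks later, in 3 arms of 4 bulk libraries each: Pax8creERT2;Ihhfl/fl mice given tamoxifen (the labelled Ihh-deleted arm), Pax8creERT2;Ihhfl/fl mice without tamoxifen (the floxed vehicle arm), and C57/BL6 wild-type mice given tamoxifen. The opposite, contralateral kidneys of the same 3 arms gave 4 libraries each. Further C57/BL6 groups were kidneys opposite a nephrectomy (3 libraries used) and kidneys of uninjured mice (2 libraries used). Pax8 drives the inducible Cre in tubular epithelium, and the background strain of the floxed line is not given in the sources used here. Of the groups compared, only the labelled Ihh-deleted arm had both Cre and tamoxifen, so deletion of Ihh and activity of Cre cannot be told apart. The 2 single-cell libraries came from C57/BL6 mice, 1 injured kidney and 1 uninjured kidney.

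Of 32 bulk libraries, 29 were used, with library totals of 0.593 M to 37.98 M counts. The shallowest were both uninjured libraries (0.593 M and 7.56 M) and nephrectomy library 4 (8.34 M). Nephrectomy library 3 and uninjured libraries 1 and 4 were left out: their summed level of 12 proximal tubule markers was 35.5 to 79.7 CPM (counts scaled by the library total), against 4670 to 33200 CPM in the libraries used, and their summed level of 7 cardiac muscle markers was 44800 to 47000 CPM. Nephrectomy library 1, which was kept, held 452 CPM of those cardiac markers, against at most 10.4 CPM in the other libraries used. With all 32 libraries in the fit, the count of members past the threshold moved by over 1.5 times in 6 of the 14 comparisons, and those counts are given beside the results. Ihh itself was detected in every injured library, at 4.58, 6.09, 5.09 and 4.86 CPM in the labelled Ihh-deleted arm, against 9.31, 11.2, 15.4 and 6.88 CPM in the floxed vehicle arm and 9.85, 5.98, 9.79 and 11.8 CPM in the wild-type arm. Its log2 fold change over both other arms, called the intact arms here, was -0.72 (SE 0.33, edgeR quasi-likelihood adjusted p = 0.0829) and did not pass the threshold of 0.05. In contralateral kidneys of the labelled Ihh-deleted arm Ihh stood at 4.34, 8.68, 3.44 and 17.2 CPM. The labels do not say that libraries of a group are separate animals, so p-values measure only the spread between these libraries. For each gene that spread was estimated over all groups together, not from the groups compared alone. No fit used the injured libraries by themselves.

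RefSeq promoter windows (GRCm38.p6, 250 bases before to 50 after the start) were found for 30 of the 40 members and searched on both strands for the letters GAAA, any 2 bases and GAAA, the core of the interferon-stimulated response element. It stood in windows of 15 of 30 members, against 3.99% of all 27025 genes in the table. The 5 sequences below are the 160 bases before the RefSeq start of each gene, 5′ to 3′ on the gene's strand, with capitals at matches of this motif on either strand. The gene models used for the counts start inside the printed stretch for Ifi44 (position 151749960), Ifit1 (34640871) and Cmpk2 (26469204). Isg15 (chr4:156200819-156200978, minus strand) and Ifit1 (chr19:34640729-34640888, plus strand) are shown as textbook members of the response, and Rsad2 (chr12:26456453-26456612, minus strand), Cmpk2 (chr12:26469055-26469214, plus strand) and Ifi44 (chr3:151749911-151750070, minus strand) because their levels after injury differed from those of the other members.
Isg15: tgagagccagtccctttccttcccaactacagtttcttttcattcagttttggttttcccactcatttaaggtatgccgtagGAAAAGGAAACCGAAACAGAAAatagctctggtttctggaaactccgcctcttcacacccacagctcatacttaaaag
Ifit1: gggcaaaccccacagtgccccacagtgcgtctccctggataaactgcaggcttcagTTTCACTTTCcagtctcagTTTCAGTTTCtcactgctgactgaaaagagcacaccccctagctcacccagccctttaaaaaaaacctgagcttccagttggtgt
Rsad2: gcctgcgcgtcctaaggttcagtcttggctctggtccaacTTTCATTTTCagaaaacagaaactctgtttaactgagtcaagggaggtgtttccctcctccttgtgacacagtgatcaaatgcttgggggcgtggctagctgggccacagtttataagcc
Cmpk2: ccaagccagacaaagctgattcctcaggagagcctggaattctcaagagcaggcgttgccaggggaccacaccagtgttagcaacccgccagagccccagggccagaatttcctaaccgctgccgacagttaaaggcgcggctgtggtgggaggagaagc
Ifi44: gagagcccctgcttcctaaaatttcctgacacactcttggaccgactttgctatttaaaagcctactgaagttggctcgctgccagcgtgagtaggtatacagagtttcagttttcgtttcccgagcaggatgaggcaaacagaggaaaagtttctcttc
Isg15 carried 3 overlapping matches, Ifit1 carried 2 and Rsad2 carried 1. Rsad2 and Cmpk2 are neighbours on chromosome 12 that are read in opposite directions, and neither the Cmpk2 nor the Ifi44 stretch held a match. A match is a description of these letters only, and a window without one says nothing about binding elsewhere.

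Injured kidneys carried more transcript of nearly all these genes than contralateral kidneys. Averaged over the 3 arms, 37 of 40 members were higher, 2 were lower (Cmpk2 and Rsad2) and Ifi44 was not called (edgeR quasi-likelihood test, adjusted p under 0.05), where 39.0% of all tested genes were called higher and 34.7% lower. The median log2 fold change of the members was 1.33, against 0.05 for all tested genes. Scaled by library totals alone, a setting added after the data were seen, 38 members were called, all higher, and 75.6% of all called genes were higher in place of 52.9%. The summed level of the 40 genes had a lowest, median and highest value of 383, 1410 and 3100 CPM in the 12 injured libraries, against 376, 451 and 584 CPM in the 12 contralateral ones. The ranges overlapped because of library 3 of the labelled Ihh-deleted arm, which at 383 CPM was the only injured library inside the contralateral range.

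**Figure D1:**
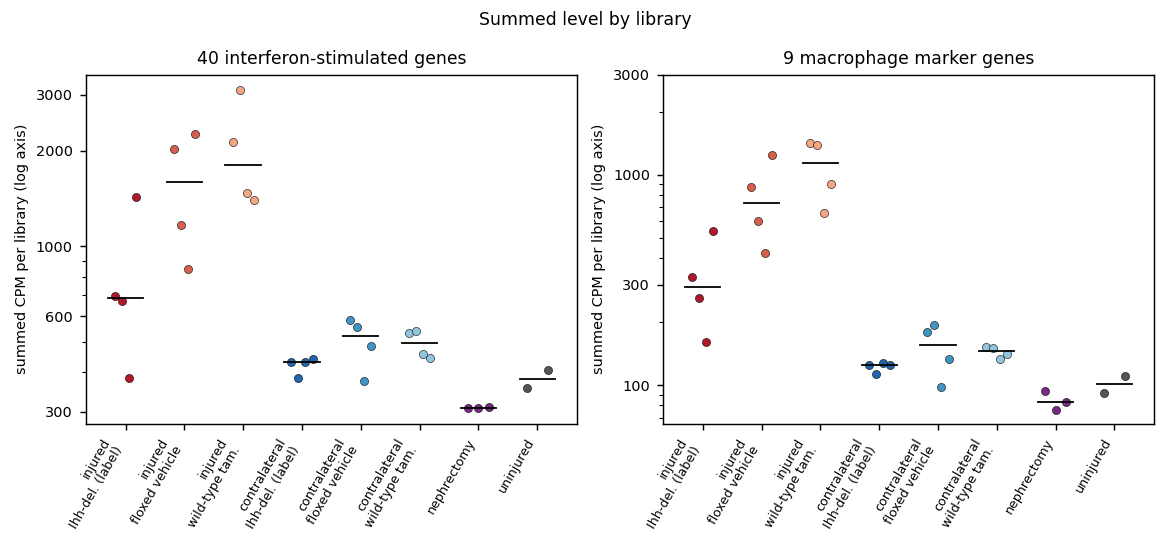
Summed CPM of the 40 interferon-stimulated genes (left) and of 9 macrophage marker genes (right) in each of the 29 bulk libraries, on log axes, by group; points are libraries and lines are group medians. Injured libraries span 383 to 3100 CPM for the interferon-stimulated genes, contralateral ones 376 to 584 CPM, and both panels place the labelled Ihh-deleted arm lowest among the injured arms.

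Among the transcription factors all 4 rose, with a median log2 fold change of 1.24. Irf1, a factor strongly induced by interferon-gamma, had lowest, median and highest values of 17.5, 63.3 and 125 CPM in injured libraries, against 8.74, 14.4 and 22.2 CPM in contralateral libraries (log2 1.80, SE 0.24, edgeR adjusted p = 4.6e-07). Irf7, which amplifies type I interferon production, stood at 5.0, 20.3 and 56.5 CPM in injured libraries, against 4.66, 6.81 and 12.9 CPM in contralateral ones (log2 1.30, SE 0.23). For both genes most injured libraries lay above the contralateral range and the lowest ones inside it. Irf9 and Stat2, which complete the type I interferon transcription complex, rose by 1.18 and 1.04 on the log2 scale.

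Of the 10 sensors and effectors that act on nucleic acids, 9 rose and Cmpk2 was called lower, with a median of 1.51. Zbp1, a sensor of Z-form nucleic acids that can start necroptosis, showed the largest log2 fold change of the 40 members at 2.40 (SE 0.35, edgeR adjusted p = 1.11e-06). Its lowest, median and highest values were 1.48, 13 and 44.4 CPM in injured libraries, against 1.06, 1.5 and 3.95 CPM in contralateral libraries. Oas2, which makes the messenger that activates RNase L, stood at 1.82, 9.59 and 21.6 CPM in injured libraries, against 1.24, 1.98 and 3.07 CPM in contralateral ones (log2 2.09, SE 0.22). The injured medians of both genes lay above the highest contralateral library. Dhx58, which encodes the RIG-I-like receptor regulator LGP2, rose by 1.51, Oas1a by 1.51 and the dNTP hydrolase gene Samhd1 by 1.59, whereas Ifih1, the MDA5 gene, rose by only 0.55. Oas1a has close copies in the genome, as have Mx, Ifitm, Gbp, Trim30 and Ifi27l2 family members, and how the authors' quantification split reads among the copies is uncertain.

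Of the 10 antiviral effectors, 8 rose, Rsad2 was called lower and Ifi44 was not called. Mx1, a dynamin-like GTPase, had lowest, median and highest values of 1.36, 6.68 and 23.0 CPM in injured libraries, against 0.765, 1.30 and 2.27 CPM in contralateral libraries (log2 2.12, SE 0.29, edgeR adjusted p = 5.55e-07). Trim30a stood at 10.3, 52.9 and 125 CPM in injured libraries, against 8.73, 12.3 and 15.0 CPM in contralateral ones (log2 1.72, SE 0.20). In both genes only the lowest injured libraries reached into the contralateral range. The IFIT genes, whose products bind foreign RNA, rose less: Ifit1 by 1.23, Ifit2 by 0.87 and Ifit3 by 0.61. Parp14, an ADP-ribosyltransferase, rose by 1.66, Mx2 by 1.42 and Rtp4 by 1.15. The gene models used class Mx2 as a polymorphic pseudogene, so its transcript need not encode a working protein.

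The ISG15 system also rose in all 3 members. Isg15, a ubiquitin-like modifier, rose by 0.93, Usp18, the protease that removes it and brakes receptor signalling, by 1.11 (SE 0.24), and Herc6, the ligase that attaches it in mice, by 0.98 (SE 0.13). Herc6 had lowest, median and highest values of 20, 43.9 and 76.6 CPM in injured libraries, against 9.33, 19.0 and 24.3 CPM in contralateral ones, and Usp18 had 1.57, 8.80 and 18.9 CPM, against 1.74, 3.05 and 4.58 CPM. All 5 membrane and mitochondrial members rose. Ifi27l2a led them at 1.72 (SE 0.27), with 1.70, 25.2 and 66.7 CPM in injured libraries, against 2.68, 6.21 and 8.99 CPM in contralateral ones. Xaf1, a pro-apoptotic factor, rose by 1.35, and Ifitm1, Bst2 and Ifitm3, which hinder virus entry or release, by 1.25, 1.10 and 0.90.

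The remaining 2 roles rose as well, all 5 GTPases with a median of 1.55 and all 3 immunoproteasome and peptide transport genes with a median of 2.05. Which interferon acted on them was not tested. Tap1, a subunit of the peptide transporter of the class I pathway, had lowest, median and highest values of 12.5, 72.3 and 198 CPM in injured libraries, against 9.92, 11.8 and 17.4 CPM in contralateral libraries (log2 2.11, SE 0.23, edgeR adjusted p = 1.82e-08). Psmb9, an immunoproteasome subunit, rose by 2.05 (SE 0.29) and stood at 5.04, 26.8 and 83.5 CPM in injured libraries, against 2.82, 4.15 and 8.75 CPM in contralateral ones. Gbp2, a guanylate-binding protein that attacks pathogen vacuoles, rose by 1.87 (SE 0.28), with 7.29, 47.8 and 137 CPM in injured libraries, against 5.47, 8.88 and 15.8 CPM in contralateral ones. All 3 had injured medians well above the contralateral maximum. Iigp1 rose by 1.81 (SE 0.32), Psmb8 by 1.79 and Gbp3 by 1.55, and the smallest rise was that of Irgm1 at 0.37 (SE 0.16, edgeR adjusted p = 0.0361), which passed the threshold in all but 7 of 24 fits that left out 1 library.

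Rsad2, Cmpk2 and Ifi44 stood apart from the other members, and they were singled out after their values were seen. Rsad2 encodes viperin, which makes a chain-terminating nucleotide from CTP, Cmpk2 encodes a mitochondrial nucleotide kinase, and Ifi44 encodes an antiviral protein. Rsad2 had lowest, median and highest values of 17.5, 35.3 and 53.5 CPM in injured libraries, against 19.6, 40.2 and 51.5 CPM in contralateral libraries, Cmpk2 had 7.39, 16.4 and 26.2 CPM, against 12.3, 16.1 and 23.4 CPM, and Ifi44 had 9.57, 20.6 and 37.6 CPM, against 9.78, 15.8 and 20.4 CPM. These CPM ranges overlapped almost fully. The fitted log2 fold changes, which also use the TMM composition factors, were -0.53 for Rsad2 (SE 0.13, edgeR adjusted p = 0.000828), -0.56 for Cmpk2 (SE 0.13, adjusted p = 0.00043) and 0.03 for Ifi44 (SE 0.12, adjusted p = 0.816). Scaled by library totals alone, which moved the median of all genes from 0.05 to 0.42, Rsad2 and Cmpk2 stood at -0.15 and -0.18 and were no longer called, and Ifi44 was called higher at 0.41. Under both scalings Rsad2 and Cmpk2 lay below the median of all genes and Ifi44 close to it.

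**Figure D2:**
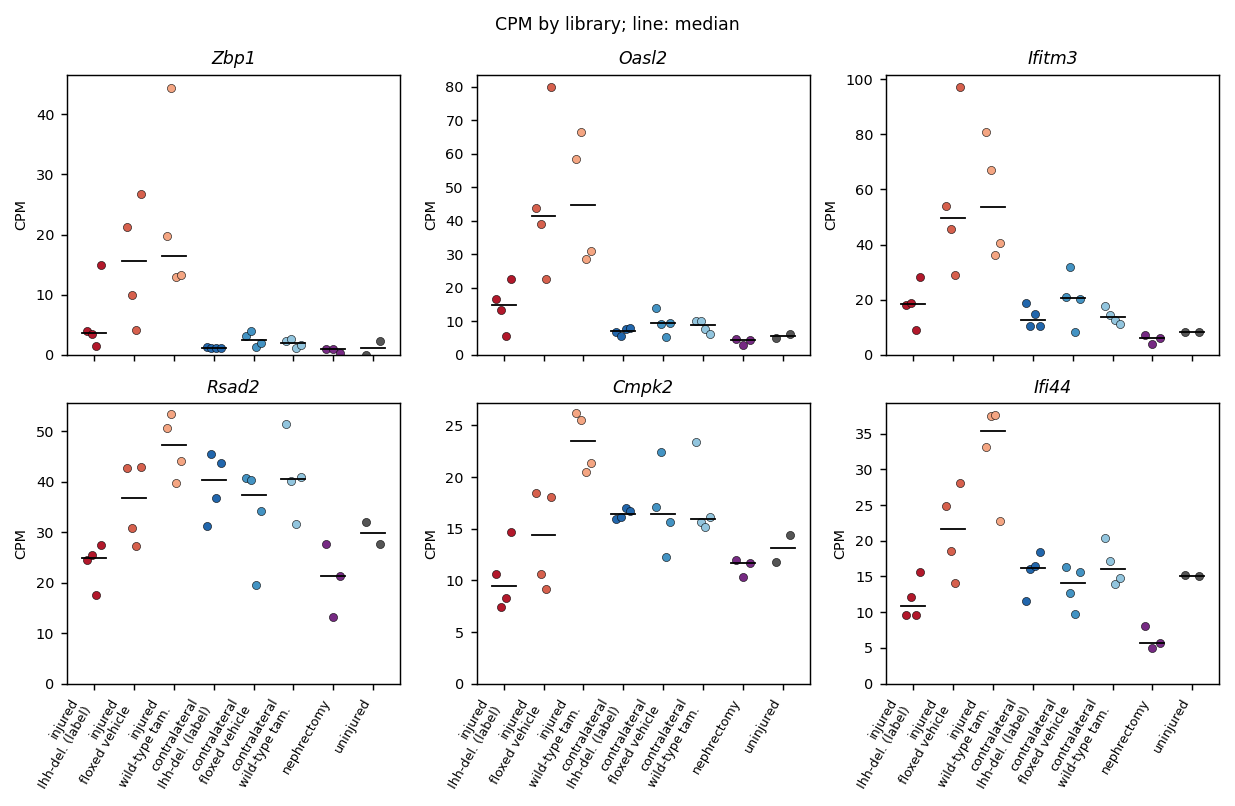
CPM of 6 members in each of the 29 bulk libraries by group, with lines at group medians. Zbp1, Oasl2 and Ifitm3 are higher in most injured libraries than in contralateral ones, while Rsad2, Cmpk2 and Ifi44 in the labelled Ihh-deleted arm lie mostly below their contralateral libraries.

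Arm by arm, the median log2 fold change of the members after injury was 0.83 in the labelled Ihh-deleted arm, against 1.4 in the floxed vehicle and 1.76 in the wild-type arm. In the labelled Ihh-deleted arm 18 members were called higher and 3 lower, against 14.5% of all genes called lower and 19.3% called higher. In the floxed vehicle arm 32 were higher and 1, Cmpk2, was lower, with 32.7% and 31.0% of all genes called, and in the wild-type arm 38 were higher and 0 lower, with 32.1% and 28.7%. With all 32 libraries in the fit the labelled Ihh-deleted arm had 12 members called in place of 21, and leaving out its injured library 4 or its contralateral library 2 gave 6 and 12. Every injured library lay above every contralateral library in 10 members in the labelled Ihh-deleted arm (24.7% of all genes), in 32 in the floxed vehicle arm (43.4%) and in 38 in the wild-type arm (52.9%). The share in the labelled Ihh-deleted arm is thus that of all genes. Over all arms together, 0 of 40 members had every injured library above every contralateral one, against 11.2% of all genes. The 3 members called lower in the labelled Ihh-deleted arm were Rsad2 at -0.93, Cmpk2 at -0.89 and Ifi44 at -0.61. Rsad2 stood there at 24.5, 25.4, 17.5 and 27.4 CPM in injured libraries, against 31.3, 45.5, 36.8 and 43.7 CPM in contralateral ones, and Cmpk2 at 10.6, 7.39, 8.27 and 14.7 CPM, against 15.9, 16.1, 17.0 and 16.7 CPM. In both genes the 4 injured libraries lay below the 4 contralateral ones, as they did in 9.24% of all genes.

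**Figure D3:**
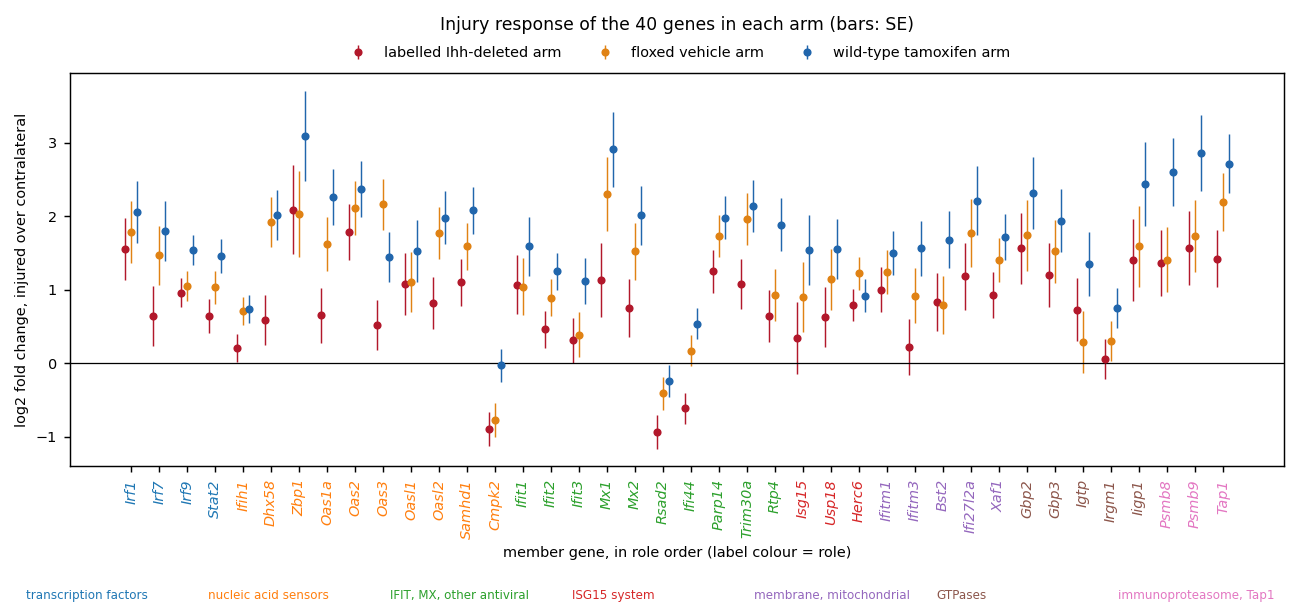
Log2 fold change of injured over contralateral kidneys for each of the 40 members in the 3 arms, ordered and coloured by role; bars are standard errors of the fit. Rsad2 and Cmpk2 lie below 0 in every arm, Ifi44 lies below 0 in the labelled Ihh-deleted arm alone, and the wild-type arm has the highest point for most members.

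The difference of injury responses was itself tested, as the response of the labelled Ihh-deleted arm minus the mean response of the intact arms. It passed the threshold for 3 of 40 members, a share near that of all genes, all with a smaller or more negative response in the labelled Ihh-deleted arm, where 5.74% of all genes had a lower response and 10.4% a higher one. These were Dhx58 at -1.38 (SE 0.41, edgeR adjusted p = 0.0291), Oas3 at -1.28 (SE 0.42, adjusted p = 0.0385) and Ifi44 at -0.97 (SE 0.26, adjusted p = 0.0183). At an unadjusted p under 0.05 there were 13 members. The count was 0 with all 32 libraries and ran from 0 to 15 when single libraries were left out, so which members pass rests on single libraries.

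Injured kidneys of the labelled Ihh-deleted arm had lower levels of these genes than injured kidneys of the intact arms. All 40 fitted log2 fold changes were negative, 33 members were called lower and 0 higher, where 16.6% of all genes were called lower and 20.5% higher. The members' median was -1.04, against -0.01 for all genes. By library totals alone, where the median of all genes was -0.25, 39 were lower and 24.8% of all called genes were higher in place of 55.2%. The summed level was 697, 673, 383 and 1430 CPM in the labelled Ihh-deleted arm, against a lowest, median and highest value of 844, 1750 and 3100 CPM in the 8 intact libraries. Library 4 of the labelled Ihh-deleted arm lay inside the intact range and the other 3 below it.

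Called lower were 3 of 4 transcription factors, 9 of 10 sensors and nucleic acid effectors, 10 of 10 antiviral effectors, 2 of 3 ISG15 system genes, 5 of 5 membrane and mitochondrial genes, 1 of 5 GTPases (Gbp3) and 3 of 3 immunoproteasome and transport genes. The 7 not called were Irf1 (-0.55), Oasl1 (-0.87), Herc6 (-0.43), Gbp2 (-0.91), Igtp (-0.82), Irgm1 (-0.57) and Iigp1 (-1.20). Irf1 and 4 of the 5 GTPases are thus among those not called, and whether they differ from the called members was not tested.

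Mx1 showed the largest difference at -1.64 (SE 0.44, edgeR adjusted p = 0.00619), with 2.93, 2.10, 1.36 and 6.51 CPM in the labelled Ihh-deleted arm, against lowest, median and highest values of 3.42, 12.9 and 23.0 CPM in the intact arms. Dhx58 differed by -1.60 (SE 0.31, adjusted p = 0.000694), with 3.30, 3.18, 1.74 and 5.53 CPM, against 5.49, 11.8 and 18.8 CPM. In both genes library 4 alone reached the intact range. Oas1a differed by -1.59 (SE 0.33, edgeR adjusted p = 0.0013), with 4.41, 4.30, 1.82 and 7.33 CPM in the labelled Ihh-deleted arm, against 6.27, 14.5 and 24.6 CPM in the intact arms. Irf7 differed by -1.46 (SE 0.37, adjusted p = 0.00402), with 12.7, 9.54, 5.0 and 17.8 CPM, against 15.4, 32.5 and 56.5 CPM. Again only library 4 overlapped. Zbp1 differed by -1.45 (SE 0.51, edgeR adjusted p = 0.03), with 4.0, 3.40, 1.48 and 14.9 CPM in the labelled Ihh-deleted arm, against 4.07, 16.4 and 44.4 CPM in the intact arms, and lost its call in 6 of 12 fits without 1 library.

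Complete separation of the 4 labelled Ihh-deleted libraries below the 8 intact ones was seen in Ifitm1, Ifitm3 and Oasl2, chosen here for that separation. These are 3 of 40 members, no larger a share than the 8.46% of all genes that separated this way, so the separation is no result about the members. Ifitm3, which blocks fusion of viral and cell membranes, stood at 17.9, 18.8, 8.94 and 28.4 CPM in the labelled Ihh-deleted arm, against a lowest, median and highest value of 28.8, 49.7 and 97.0 CPM (log2 -1.37, SE 0.34). Oasl2, a protein related to the OAS enzymes, stood at 16.7, 13.3, 5.55 and 22.6 CPM, against 22.7, 41.3 and 79.8 CPM (log2 -1.44, SE 0.32). Ifitm1 stood at 3.5, 4.12, 2.37 and 5.46 CPM, against 5.54, 10.8 and 16.0 CPM (log2 -1.21, SE 0.27). Ifitm1 also stood lower in contralateral kidneys of that arm, at 1.34 to 1.94 CPM, against 2.12 to 4.06 CPM in the intact arms (log2 -0.84, SE 0.28), though it was not called there (edgeR adjusted p = 0.441). The gaps between the groups were narrow, since library 4 of the labelled Ihh-deleted arm came close to floxed vehicle library 3 in each gene.

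**Figure D4:**
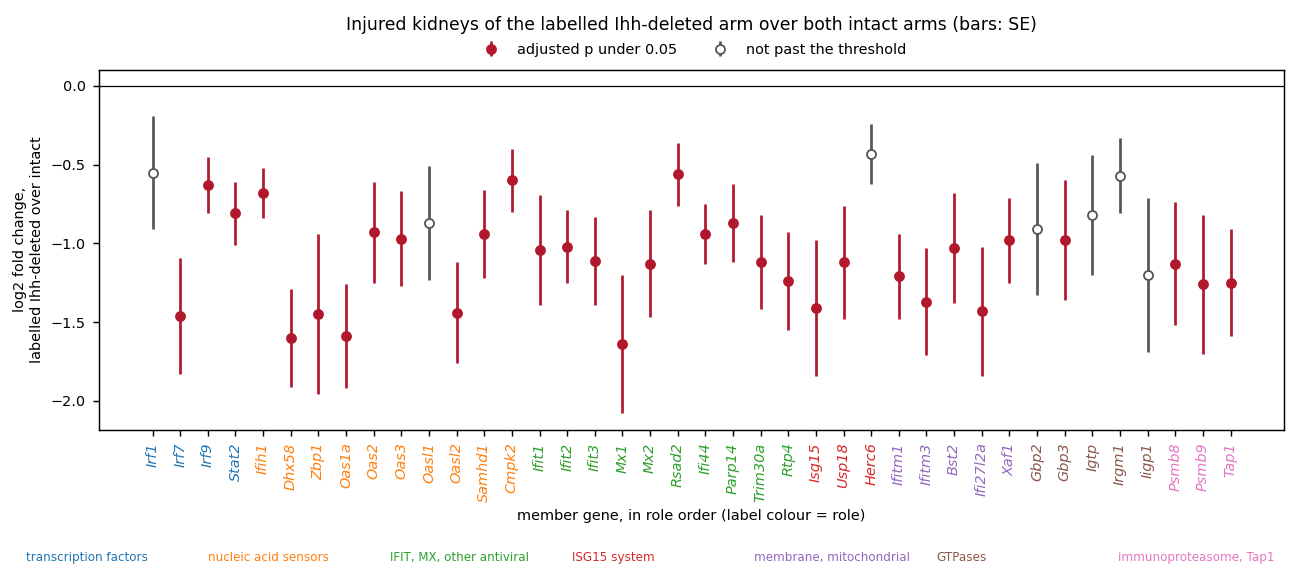
Log2 fold change of injured kidneys of the labelled Ihh-deleted arm over injured kidneys of both intact arms for the 40 members; bars are standard errors, filled points passed an adjusted p of 0.05 and open points did not. All 40 points lie below 0, from -1.64 for Mx1 to -0.43 for Herc6.

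Library 3 of the labelled Ihh-deleted arm carried part of this result: without it the count of called members was 17, while other single libraries left out gave up to 40. Of the 33 called members 17 kept their call in all 12 such fits, among them Irf7, Dhx58, Oas1a, Oasl2, Mx1, Ifi44, Ifitm1, Ifitm3 and Tap1. With all 32 libraries the count was 16. Against the wild-type arm alone 36 members were called lower (18.1% of all genes lower, 20.5% higher), or 19 with all 32 libraries, and without library 3 of the labelled Ihh-deleted arm or library 2 of the wild-type arm the count fell to as few as 21. Against the floxed vehicle arm alone, which shares the alleles, 14 members were called lower (7.31% of all genes lower, 9.06% higher) with a median of -0.90, but the count was 0 with all 32 libraries and ran from 0 to 37 when single libraries were left out. The floxed vehicle and wild-type arms themselves differed in 0 members by edgeR and by DESeq2, with 2 at an unadjusted p under 0.05 and 2.22% of all genes called. In contralateral kidneys the labelled Ihh-deleted and intact arms also differed in 0 members by both tools, with 3 at an unadjusted p under 0.05 and 0.00568% of all genes called. The fitted log2 fold changes there were nonetheless negative in 37 of 40 members, with a median of -0.37 against -0.01 for all genes, and Ifit3 and Ifitm1 lay wholly below the intact libraries, as did 0.46% of all genes. In these last comparisons a failure to pass does not show equal levels.

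Many, but not all, marker lists of leukocytes and tubules changed along with these genes in the bulk libraries. There, fewer cells of a type and less RNA per cell cannot be told apart. In injured over contralateral kidneys 9 of 9 macrophage, 10 of 10 T cell, 7 of 7 B cell and 6 of 6 dendritic cell markers rose, 12 of 12 proximal tubule markers fell, and of 8 endothelial markers 0 rose and 3 fell. Of all tested genes 39.0% rose and 34.7% fell, so the share of endothelial markers that fell was near that of all genes. The macrophage markers summed to 160, 631 and 1410 CPM (lowest, median and highest) in injured libraries, against 98.0, 133 and 193 CPM in contralateral ones, and the endothelial markers to 293, 471 and 656 CPM, against 270, 493 and 539 CPM. In injured kidneys of the labelled Ihh-deleted arm 9 of 9 macrophage markers, 4 of 6 dendritic cell, 3 of 10 T cell, 0 of 7 B cell, 4 of 8 endothelial and 9 of 9 fibroblast and mural markers were lower than in the intact arms, and 12 of 12 proximal tubule markers were higher. Between these arms 16.6% of all tested genes were lower and 20.5% higher. The macrophage sums were 160, 293 and 543 CPM in the labelled Ihh-deleted arm, against 423, 890 and 1410 CPM in the intact arms, and the proximal tubule sums 13400, 19100 and 27000 CPM, against 4670, 11200 and 17400 CPM. No marker of these lists was at 0 in all libraries of an injured or contralateral group, whereas 3 B cell, 1 T cell and 1 dendritic cell marker were at 0 in both uninjured libraries. Sums of monocyte, natural killer cell and plasma cell markers also had higher medians after injury and lower ones in the labelled Ihh-deleted arm. Neutrophil medians were 41.1 CPM in injured and 23.4 CPM in contralateral libraries. Between the injured arms they were 40.6 CPM (labelled Ihh-deleted) and 41.1 CPM (intact). The plasmacytoid dendritic cell list ran opposite, at 386 CPM injured against 668 CPM contralateral, and 607 CPM against 258 CPM between these arms. The part of these cell types in the levels of the interferon-stimulated genes was not tested.

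Other steps of the pathway were read from lists of named genes. For comparison, 39.0% of all tested genes rose after injury and 34.7% fell. Between the labelled Ihh-deleted and intact arms 20.5% were higher and 16.6% lower. Of 10 listed interferon genes only Ifng, the interferon-gamma gene, was abundant enough to be tested: it rose in injured over contralateral kidneys (log2 1.68, SE 0.52, edgeR adjusted p = 0.00604) and was not called between the labelled Ihh-deleted and intact arms (-1.08, adjusted p = 0.235). Its level stayed low, at 0.0412, 0.0448, 0.0424 and 0.486 CPM in injured libraries of the labelled Ihh-deleted arm, against 0.0531 to 1.37 CPM in the intact arms. Ifnb1, the interferon-beta gene, was listed at 0 in all libraries but 1, so its message was all but undetectable at this depth. Of 6 receptor genes 5 rose after injury, among them Ifngr1 at 1.03 and Ifnar1 at 0.64, and 5 were lower in the labelled Ihh-deleted than in the intact arms, among them Ifngr1 at -0.81 and Ifnar1 at -0.36.

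The relay between receptor and genes rose in all 10 tested Janus kinase and STAT members after injury, with Socs3 at 3.44 and Socs1 at 1.97, both feedback inhibitors. In the labelled Ihh-deleted arm against the intact arms 4 of these 10 were lower and 1 was higher. As above, 39.0% of all tested genes rose after injury and 34.7% fell, and between the arms 16.6% were lower and 20.5% higher. Of 13 nucleic acid sensing genes 10 rose after injury and Mavs fell (-0.45), with Aim2 at 2.71 and Tmem173, the STING gene, at 2.57, and 9 of 13 were lower and 2 higher in the labelled Ihh-deleted arm. A list of 51 further interferon-induced genes had 46 higher and 1 lower after injury, and 0 higher and 39 lower in the labelled Ihh-deleted arm, led there by Oas1g at -1.68 and Slfn8 at -1.64. Of 12 class I presentation genes 9 rose and 3 fell after injury, H2-K1 leading at 1.4, and 3 were higher and 7 lower in the labelled Ihh-deleted arm.

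The interferon-gamma chemokines were mixed between the arms. After injury Cxcl9 rose by 3.38 (SE 0.54) and Cxcl10 by 2.97 (SE 0.41), and 5 of 7 genes of that list rose, where 39.0% of all tested genes did. In the labelled Ihh-deleted arm Cxcl11, a ligand of CXCR3, was higher than in the intact arms (log2 2.33, SE 0.42, edgeR adjusted p = 0.000508), at 2.02, 4.79, 1.02 and 6.39 CPM, against 0.441 to 1.30 CPM. Cxcl10 stood at 19.4, 45.3, 3.77 and 78.3 CPM in the labelled Ihh-deleted arm, against 11 to 45.6 CPM in the intact arms, and was not called (0.92, adjusted p = 0.189), nor was Cxcl9 (-1.01, adjusted p = 0.296). Cxcl11 was the only gene of that list called higher, while Ciita at -1.33 and Cd274 at -0.92 were called lower. Of all tested genes 20.5% were called higher between these arms and 16.6% lower.

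Kidneys of mice without ischaemia held low levels of the members. The summed level of the 40 genes was 309, 309 and 311 CPM in the nephrectomy group, against 356 and 406 CPM in uninjured kidneys. Nephrectomy and uninjured kidneys differed in 0 members by edgeR and in 1 by DESeq2, with 3 at an unadjusted p under 0.05 and 0.176% of all genes called, and contralateral and uninjured kidneys differed in 0 members by both tools, with 2 at an unadjusted p under 0.05 and 0.426% of all genes called. With all 32 libraries, contralateral and uninjured kidneys differed in 5 members. Injured over uninjured kidneys gave 27 members higher and 0 lower (19.8% of all genes higher, 18.4% lower), with a median of 1.67 against 0.13 for all genes. This count rests on 2 uninjured libraries: it was 0 without uninjured library 3 and 14 without the shallow library 2.

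Against contralateral kidneys, the nephrectomy group was lower in 4 members and higher in 0 (2.24% of all genes lower and 3.38% higher), with a median of -0.66 against -0.05 for all genes. Ifi44 stood at 8.04, 4.93 and 5.65 CPM in nephrectomy libraries 1, 2 and 4, against 9.78, 15.8 and 20.4 CPM as lowest, median and highest of 12 contralateral libraries (log2 -1.20, SE 0.21, edgeR adjusted p = 0.00105). The others were Ifi27l2a at -1.68 (SE 0.50), Ifitm3 at -1.39 (SE 0.39) and Rsad2 at -0.80 (SE 0.22). DESeq2 called 7 members, without nephrectomy library 2 or 4 the count moved by over 1.5 times, within 1 to 6, and Ifi44 alone kept its call in every fit without 1 library.

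In single cells the interferon-stimulated genes were carried mainly by endothelial-like cells and leukocytes. The 3063 barcodes of the injured kidney and 1313 of the uninjured kidney, of which 8 barcodes occur in both, were clustered with the members and the pathway genes left out, and clusters were named from marker genes as X-like. With 1 library per kidney there is no test, and intervals cover counting error only. Counted as CPM of unique molecular identifiers (UMIs), the members summed to 9970 CPM in 285 endothelial-like cells of the injured kidney (exact 95% Poisson interval 9680 to 10300), 5560 in macrophage-like, 5400 in dendritic cell-like, 4030 in T cell-like and 3210 in B cell-like cells. Proximal tubule-like cells held 197 CPM (179 to 216) in the injured kidney, against 91.1 CPM (81.2 to 102) in the uninjured kidney. In the endothelial-like cells of the uninjured kidney, 53 in number, the level was 8650 CPM (8040 to 9290). Endothelial-like cells were thus high in both kidneys, and proximal tubule-like cells low in both.

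**Figure D5:**
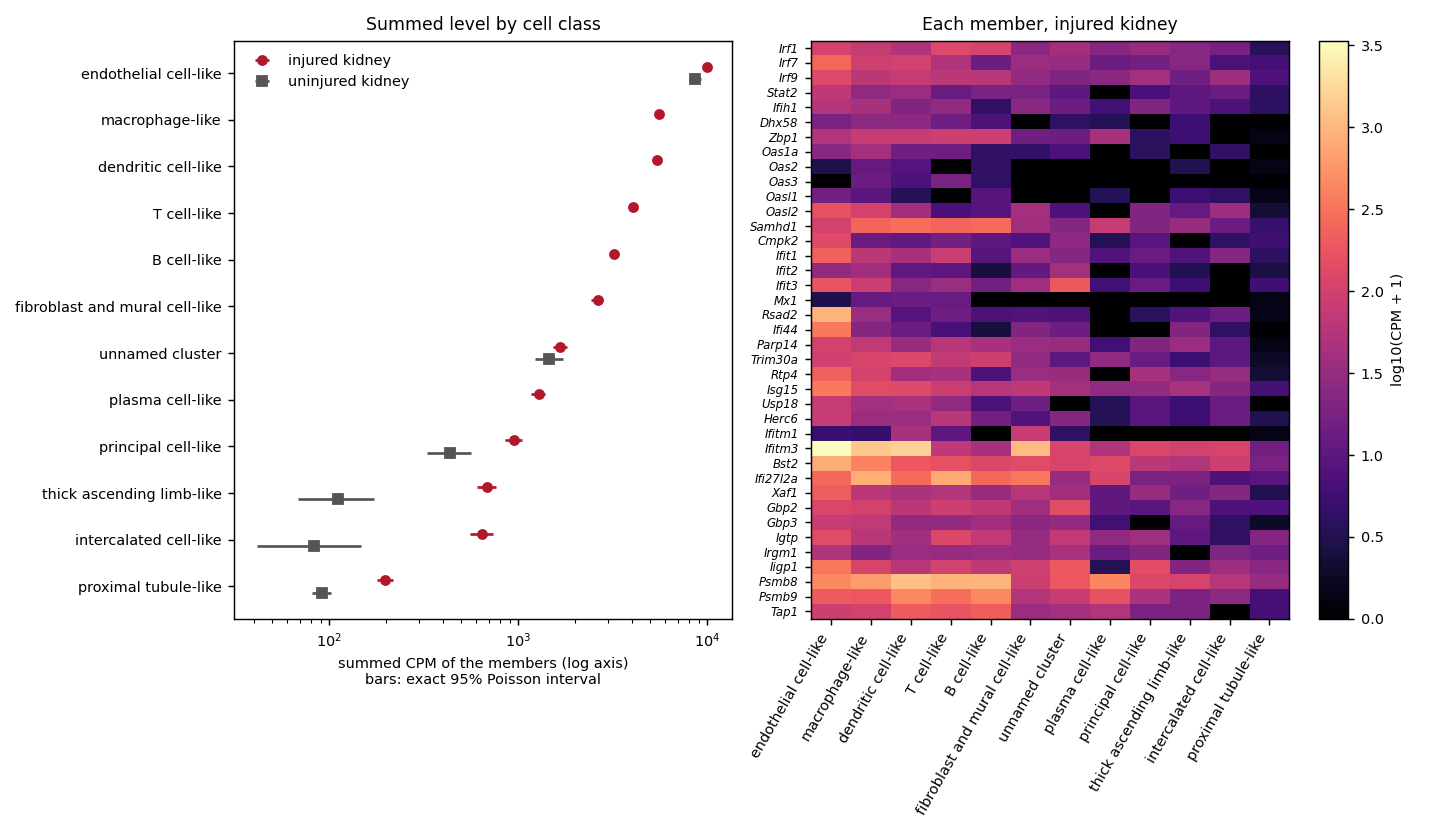
Left, summed CPM of the members by cell class on a log axis, with exact 95% Poisson intervals, in the injured kidney and, for classes of at least 20 cells, in the uninjured kidney; right, log10(CPM + 1) of each listed member by class in the injured kidney. Endothelial-like cells lead at 9970 and 8650 CPM, proximal tubule-like cells come last in the injured kidney at 197 CPM.

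Over all cells the members summed to 2710 CPM in the injured kidney, against 393 CPM in the uninjured kidney. With cells of a mitochondrial share of at most 20% alone, the sums were 3360 CPM in the injured and 922 CPM in the uninjured kidney. The makeup of the suspensions differed: proximal tubule-like cells were 29.6% of barcodes in the injured kidney, against 79.7% in the uninjured one, and endothelial-like cells 9.3%, against 4.04%. The median mitochondrial share was 5.97% of UMIs in the injured library, against 23.6% in the uninjured one, and the median depth 2014 UMIs, against 2391. Of the members' UMIs in the injured kidney, 22.7% came from endothelial-like, 21.6% from macrophage-like, 20.8% from dendritic cell-like and 2.2% from proximal tubule-like cells. In the uninjured kidney 47.7% came from endothelial-like and 19.1% from proximal tubule-like cells. Within proximal tubule-like cells the macrophage markers summed to 40.6 CPM in the injured library, against 5.4 CPM in the uninjured one, and the T cell markers to 36.3 CPM, against 0.6 CPM, so transcripts of other cells were present there at different levels, and their part in the members' level was not tested.

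In the injured kidney the summed levels by role were as follows. Antiviral effectors summed to 2160 CPM in endothelial-like cells, against 539 CPM in macrophage-like cells, and membrane and mitochondrial members to 4690 CPM, against 2670 CPM. Single genes carried much of both sums: Rsad2 and Ifi44 held 965 and 349 of the 2160 CPM, and Ifitm3 alone held 3380 of the 4690 CPM in endothelial-like cells and 1330 of the 2670 CPM in macrophage-like cells, so that without Ifitm3 the membrane and mitochondrial members had no lead in endothelial-like cells. The immunoproteasome and transport genes ran the other way, at 1830 CPM in dendritic cell-like, 1620 CPM in B cell-like and 1400 CPM in T cell-like cells, against 759 CPM (683 to 842) in endothelial-like cells. Macrophage-like cells stood closer to these, at 928 CPM (863 to 996), and plasma cell-like cells lay below them, at 650 CPM (574 to 732). Zbp1 leaned the same way, with 92.6 CPM in B cell-like, 90.7 CPM in T cell-like, 77.8 CPM in dendritic cell-like and 77.2 CPM in macrophage-like cells, against 52.3 CPM in endothelial-like and 0.427 CPM (a single UMI) in proximal tubule-like cells. Tap1 had 213 CPM in B cell-like and 204 CPM in dendritic cell-like cells, against 92.1 CPM in endothelial-like cells. Ifi27l2a was highest in macrophage-like cells at 872 CPM and T cell-like cells at 777 CPM. Ifitm3 led in endothelial-like cells at 3380 CPM, followed by dendritic cell-like cells at 1540 CPM and macrophage-like cells at 1330 CPM. Irf7 was also highest in endothelial-like cells, at 257 CPM, against 93.2 CPM in macrophage-like cells. Ifitm1, by contrast, was highest in fibroblast and mural cell-like cells at 81.3 CPM and stood at 4.18 CPM in endothelial-like cells.

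Rsad2 and Ifi44, which did not rise in bulk on average, were the members most tied to endothelial-like cells among the 3 singled out above. In the injured kidney 461 of 517 Rsad2 UMIs lay in endothelial-like cells (89.2%, Wilson 95% interval 86.2 to 91.6), against 95 of 99 in the uninjured kidney (96.0%, 90.1 to 98.4). Its level there was 965 CPM (878 to 1060) in the injured kidney, against 1080 CPM (875 to 1320) in the uninjured one. Ifi44 had 167 of 218 UMIs in endothelial-like cells of the injured kidney (76.6%), against 26 of 26 in the uninjured kidney, at 349 CPM (298 to 407), against 296 CPM (193 to 434). Both genes thus had overlapping counting intervals between the kidneys within that class. Cmpk2 had 65 of 123 UMIs there in the injured kidney (52.8%), against 19 of 41 (46.3%), at 136 CPM (105 to 173), against 216 CPM (130 to 338). The endothelial markers, as given above, had 0 of 8 members higher in injured bulk kidneys, where 39.0% of all tested genes were higher. The part of endothelial cells in the bulk levels of these 3 genes was not tested.

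Smaller classes add detail. An unnamed cluster led by Cryab, Fst and Aqp1 held Ifit3 at 189 CPM (145 to 244) in the injured kidney, against 874 CPM (692 to 1090) in the uninjured kidney, where 79 UMIs in 31 cells gave the value. Principal-like cells summed to 945 CPM over all members in the injured kidney, against 434 CPM in the uninjured one, but that cluster was also led by Slc12a3 and Calb1 of the distal convoluted tubule, and at a mitochondrial share of at most 20% the values were 1270 CPM, against 981 CPM. Thick ascending limb-like cells summed to 680 CPM in the injured kidney, against 111 CPM in the uninjured one. These values were 297 CPM, against 107 CPM, without called doublets, 1020 CPM, against 0.0 CPM, under the mitochondrial limit, and 1090 CPM, against 563 CPM, at a clustering resolution of 0.5, so they are not firm. Cells were clustered anew under each of these settings, so the classes compared need not hold the same cells. The 54 thick ascending limb-like cells of the uninjured kidney had a median mitochondrial share of 34.5%, above that limit. Of the ligands, Ifng had 34 of 36 UMIs in T cell-like cells of the injured kidney. Cxcl9 stood at 98.8 CPM in dendritic cell-like and 95.6 CPM in macrophage-like cells and at 0 in endothelial-like cells, while Cxcl10 was highest in the unnamed cluster at 158 CPM.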

How the data were processed

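The deposited bulk values are expected counts per transcript; the submitters' processing notes name Salmon 1.4 and the builds GRCm38 and mm10. The deposited single-cell UMI counts were made by the authors with Cell Ranger and STAR, per the same notes, from DAPI-sorted live cells with the 10x 3' v2 kit, per the labels' protocols. The 105833 transcripts were matched to GENCODE M21 (105281 found, 0.185% of counts lost), summed to genes and rounded to whole numbers.

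Bulk fits were made in R 4.3.3 with edgeR 4.0.16. Genes kept by filterByExpr were scaled by TMM, each of the 8 groups had its own coefficient, and quasi-likelihood p-values were adjusted by Benjamini-Hochberg over 17616 genes at a threshold of 0.05. CPM values use library totals alone, so folds between CPM values and fitted folds differ. On simulated counts over 17616 genes, with changes placed in injured libraries, 89 of 100 genes changed 2-fold and 94 of 100 changed 4-fold were recovered. The simulation gave every gene the same spread and tested only injured against contralateral kidneys averaged over the arms. It does not give the recovery in single arms or between arms. No library was a copy of another of its group. Closest to sampling noise alone were both uninjured libraries used, with a reduced chi-square of 1.94, against 9.82 to 286 in the other pairs. Uninjured library 2 held only 0.593 M counts, which limits that check. DESeq2 1.42.0 and the other settings are in the closing section.

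Single cells were clustered in scanpy 1.11.5 (Python 3.11.15; 2000 variable genes, 30 components, 15 neighbours, resolution 1.0) without the members and pathway genes. Scrublet called 5 and 3 doublets, too few to have worked, and none were removed. Every barcode had at least 1004 UMIs and at most 50.0% mitochondrial UMIs. The Wilson and Poisson intervals are 95% intervals.

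The members and all gene lists were chosen with earlier results of these data known. All members could be named; values per library were given for the largest folds per role after injury, the 5 largest between the arms, and members said to be chosen after their values were seen. Promoter windows of 10 members are not used here. The block by library number was not used because correlations of same-numbered libraries ran from -0.22 to 0.19 over 12 pairs. These values do not decide whether same-numbered libraries came from the same mouse.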

Additional observations from a re-analysis of the deposited data

Results flagged for a closer look

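The 138 groups of 4 libraries searched were each for 1 gene or for the summed level of the 40 members. In them 4 single libraries stood far from the other 3 of their group. Chance alone marks about 1 in 20 such groups. Psmb9 stood at 29.9 CPM in injured library 4 of the labelled Ihh-deleted arm, against 5.04 to 8.37 CPM in the other 3. Gbp2 stood at 137 CPM in injured library 2 of the wild-type arm, against 47.4 to 61.6 CPM. In contralateral library 1 of the wild-type arm Cmpk2 stood at 23.4 CPM, against 15.2 to 16.1 CPM, and Ifitm1 at 3.85 CPM, against 2.12 to 2.30 CPM.

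The injury response differed between the labelled Ihh-deleted and intact arms in Dhx58 (-1.38 on the log2 scale), Oas3 (-1.28) and Ifi44 (-0.97) by the test of the difference itself (edgeR adjusted p = 0.0291, 0.0385 and 0.0183). These 3 of 40 members are a share near that of all genes, of which 5.74% had a lower response. With all 32 libraries the count was 0, and 0 of the 3 kept their call in every fit without 1 library. The response of Dhx58 was 0.59 in the labelled Ihh-deleted arm (not called), against 1.92 in the floxed vehicle and 2.02 in the wild-type arm. That of Oas3 was 0.52 (not called), against 2.16 and 1.44, and that of Ifi44 was -0.61, against 0.17 (not called) and 0.54.

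The 3 libraries without a kidney profile, which no comparison used, also carried the members, at a summed 531 CPM in nephrectomy library 3 and 497 and 522 CPM in uninjured libraries 1 and 4, above the 356 and 406 CPM of the uninjured libraries used.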

How the results depend on the processing

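Under RLE factors, no low-count filter, DESeq2 and the 24 libraries of the injury arms alone, each count stayed within 1.5 times the reported one except where given, and no member reversed its direction after injury or between the arms. With all 32 libraries the members called fell to 12 for injury in the labelled Ihh-deleted arm, 16 for the labelled Ihh-deleted against the intact arms, 19 against wild type, 0 against floxed vehicle and 0 for the difference of responses, and were 5 for contralateral against uninjured kidneys. DESeq2 gave 22 against floxed vehicle, 1 for nephrectomy against uninjured and 7 for nephrectomy against contralateral kidneys. Library totals without TMM factors, added after seeing the data, gave 26 against floxed vehicle and 7 for the difference of responses, and moved called genes that were higher after injury from 52.9% to 75.6% and between the injured arms from 55.2% to 24.8%. RLE factors moved the higher share of the difference of responses from 64.4% to 54.3%. The cause was not tested. Single libraries left out gave 38 to 39 members after injury, 35 to 38 in the wild-type arm, 27 to 35 in the floxed vehicle arm, 6 to 25 in the labelled Ihh-deleted arm, 17 to 40 between the arms, 21 to 39 against wild type, 0 to 37 against floxed vehicle, 0 to 1 between the intact arms, 0 to 15 for the difference of responses, 0 to 31 against uninjured kidneys and 1 to 6 for nephrectomy against contralateral kidneys; the labelled Ihh-deleted contralateral, contralateral against uninjured and nephrectomy against uninjured comparisons kept 0. The replicate block by library number gave 38 members after injury, 38, 34 and 17 in the wild-type, floxed vehicle and labelled Ihh-deleted arms and 4 for the difference of responses. The own number was the best match in 5 of 12 pairs, which does not decide whether same-numbered libraries came from the same mouse. In single cells, CPM without mitochondrial UMIs raised the members' sum in the injured kidney to 10500 in endothelial-like, 5800 in macrophage-like, 5590 in dendritic cell-like, 4300 in T cell-like, 3440 in B cell-like and 787 in intercalated-like cells; injured against uninjured it gave 1140 against 579 in principal-like, 824 against 173 in thick ascending limb-like, 253 against 123 in proximal tubule-like and 3070 against 525 in all cells. At a mitochondrial share of at most 20% these were 1270 against 981, 1020 against 0.0, 298 against 133 and 3360 against 922, with 10400 in endothelial-like, 4160 in fibroblast and mural-like and 938 in intercalated-like cells of the injured kidney. Leaving out called doublets gave 297 in thick ascending limb-like cells of the injured kidney, and resolution 0.5 gave 1090 against 563 there. Cells were clustered anew for the mitochondrial limit, the doublet setting and resolution 0.5, so these classes need not hold the same cells. The uninjured comparison is limited by having 2 libraries and by the depth of library 2, which held 0.593 M counts.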
